A study of Mus musculus with 20 samples.

Results

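Desmosomes and adherens junctions hold the cells of the corneal epithelium to one another, and the genes described here encode 10 of their proteins. They were chosen as a list by symbol, with earlier results of these data known: *Dsp*, *Pkp1*, *Pkp3*, *Jup*, *Dsc2*, *Dsg2*, *Dsg3*, *Perp*, *Cdh1* and *Ctnna1*. All 10 were found among the 24552 genes of the table, and all 10 were among the 11288 genes that reached a mean normalized count of at least 10 over the libraries and were tested.

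A desmosome is a spot-like junction in which cadherins of the desmoglein and desmocollin families meet in the gap between neighboring cells. On the inner side, plakoglobin and plakophilins bind the cadherin tails, and desmoplakin ties this plaque to the keratin filaments. An adherens junction is built on E-cadherin, which is linked through catenins to actin. In stratified epithelia such as the corneal epithelium these junctions carry mechanical load and are taken apart and rebuilt when cells migrate over a wound.

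Corneal epithelium was removed by debridement, that is, scraped from the surface, of naïve female C57BL/6J mice, and each library held the pooled tissue of both eyes of 1 animal. The labels give 5 libraries at each of 4 ages: 2 to 3 months (the young group), 12 to 13, 18 to 19 and 24 to 25 months (the 12-, 18- and 24-month groups). No group carried a transgene, a deletion or a treatment. According to the methods, mice were bought, aged in house or received from an aging colony, and which source gave which animal is not stated in the sources used here, so source and age cannot be told apart. The p-values measure the spread between these animals, scrapes and library preparations together.

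Libraries held 6699383 to 10762360 reads on genes (median, 8731334) and were made from the 3′ end of polyadenylated RNA with an oligo-dT primer. A transcript therefore gives about the same number of reads whatever its length, and levels below are normalized 3′-end counts, that is, reads divided by the size factor of the library. The corneal epithelial keratin gene *Krt12* lay between 203580 and 285895 normalized counts in all libraries, and 0 of 10 corneal epithelium markers passed the limma test at 12, 18 or 24 months against the young group (1, 0 and 2 at an unadjusted p below 0.05). Markers of keratocytes, the cells of the stroma under the epithelium, moved with age. Their summed level ran from 1869 to 4754 normalized counts in the young group, 801 to 1765 at 12 months, 824 to 1594 at 18 months and 432 to 1204 at 24 months. Of 10 keratocyte markers, limma called 2, 3 and 4 lower at 12, 18 and 24 months against the young group. Of all tested genes it called 0.532%, 0.673% and 0.78%. At each of these ages 9 of the 10 markers had a negative value, and 8, 5 and 8 had an unadjusted limma p below 0.05. *Ptgds* averaged 0 in the young group and 109 ± 237 (SD) at 12 months, and was at 0 in 16 libraries. *Kera* (keratocan), a defining marker, was at 0 in 5 of the 20 libraries. Of 9 conjunctiva markers 5 were tested, and 2, 2 and 1 were called lower at these ages. Among them was *Krt4*, which went from 4518 normalized counts in the young group to 1545 at 24 months. Others went the other way without passing the test: from young to 24 months the mean normalized count went from 30.5 to 51.4 for *Krt8* and from 29.9 to 36.1 for *Agr2*. The summed level of the list, most of it *Krt13*, ran from 28470 to 49819 in the young group, 24416 to 40038 at 12 months, 27584 to 37335 at 18 months and 24803 to 29951 at 24 months, and the goblet cell mucin gene *Muc5ac* was at 0 in 14 libraries. Summed melanocyte markers were at 1049 normalized counts in 12-month replicate 3 and at 44.2 to 133 in the other libraries. The part of these markers in the junction gene values was not tested. In bulk tissue, fewer cells of a type and less RNA per cell cannot be told apart.

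The 10 genes were abundant. Ranked by mean normalized count over the 20 libraries, *Dsp* was at rank 17 of the 11288 tested genes and the lowest of the 10, *Dsg2*, at rank 1032. Together they took 0.848% ± 0.0434 (SD, 20 libraries) of all reads on genes, with age means between 0.819% at 18 months and 0.87% in the young group. In order of mean normalized 3′-end count, *Dsp* (29432) was followed by *Perp* (12060), *Jup* (5672), *Ctnna1* (5329), *Pkp1* (4078), *Cdh1* (4051), *Dsc2* (4025), *Pkp3* (3399), *Dsg3* (1843) and *Dsg2* (1244). *Dsp* was above *Perp* and *Perp* above *Jup* in 20 of 20 libraries with no overlap of their ranges. The order of *Jup* and *Ctnna1* held in only 12 of 20 libraries, that of *Pkp1* and *Cdh1* in 9 and that of *Cdh1* and *Dsc2* in 10, so these neighbors did not differ beyond their spread. The fewest reads on any of these genes in any library were 995, for *Dsg2*, which allows a counting error of 3.17%.

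**Figure D1:**
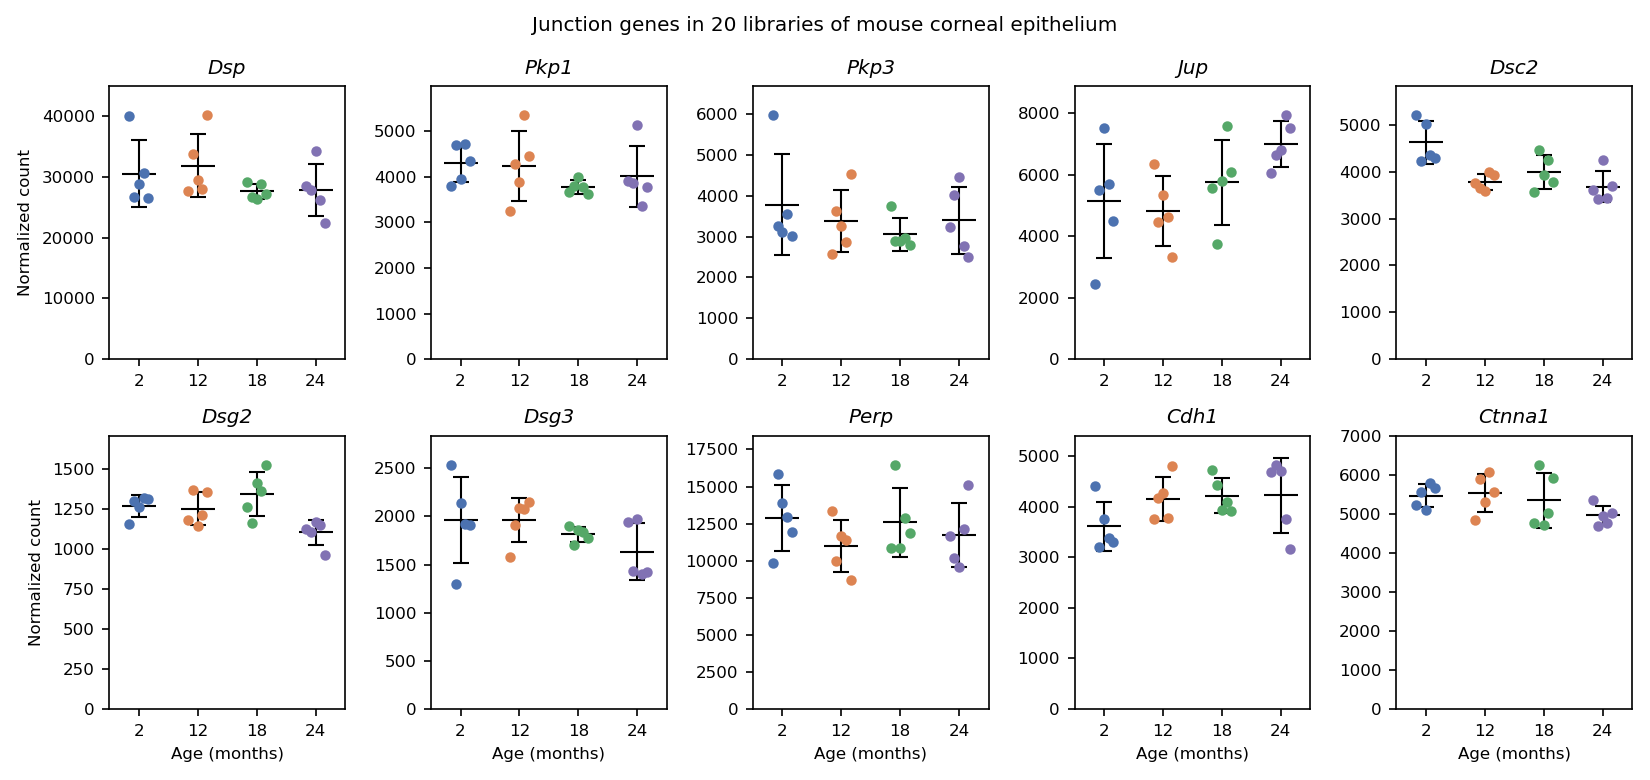
Normalized 3′-end count (vertical axis, from 0) of each of the 10 junction genes against age in months. Each point is 1 library, and the bars give the mean and SD of 5 libraries. Values of most genes overlap among all ages. *Jup* has its widest spread in the young group, and the *Dsc2* points at 12 months, 3593 to 4003, all lie below the young ones.

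No gene of the 10 passed the test in any comparison of ages. With limma on the log2 values and Benjamini-Hochberg adjustment over all tested genes, a gene was called at an adjusted p of 0.05 or less and at least a 1.2-fold change. At 12 vs. 2 months 0 of the 10 genes were called, where 0.532% of all tested genes were. At 18 vs. 2 months 0 were called (0.673% of all genes), and at 24 vs. 2 months 0 were called (0.78% of all genes). Between aged groups 0 were called at 18 vs. 12 months (0.00886% of all genes), 24 vs. 12 months (0.195%) and 24 vs. 18 months (0%). Comparing all 15 aged libraries with the young group, 0 were called, with 1.01% of all genes. The F-test for any difference among the 4 ages called 0 (0.904% of all genes), and the linear trend with age called 0 (0.718% of all genes). At such shares, a count of 0 among 10 genes is at the background. The comparisons with the young group share its 5 libraries.

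At an unadjusted limma p below 0.05, 1 of the 10 genes stood at 12 vs. 2 months (9.56% of all genes), 1 at 18 vs. 2 months (7.18%) and 2 at 24 vs. 2 months (9.97%). These were *Dsc2* each time, and *Jup* at 24 months. Between aged groups the counts were 0 at 18 vs. 12 months (7.43% of all genes), 1, *Jup*, at 24 vs. 12 months (14.7%) and 1, *Dsg2*, at 24 vs. 18 months (5.31%). For all aged libraries together there were 2, *Dsc2* and *Cdh1* (7.89% of all genes). The F-test had 2, *Dsc2* and *Jup* (11.4% of all genes), and so had the linear trend (9.98%). These counts are close to the share of all genes. The voom method on the recovered reads also called 0 of the 10 in every comparison. Counting genes whose libraries did not overlap between 2 ages, there was 1 at 12 vs. 2 months, *Dsc2* (1.98% of all genes), and 0 at 18 vs. 2 months (2.05%), 24 vs. 2 months (2.81%), 18 vs. 12 months (1.13%), 24 vs. 12 months (3.24%) and 24 vs. 18 months (1.2%).

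What the data give is a bound on the size of the changes. Against the young group, the 95% confidence interval of the fold change lay inside 1.5-fold in either direction for 10, 8 and 9 of the 10 genes at 12, 18 and 24 months. The genes whose intervals reached further were *Pkp3* and *Jup* at 18 months and *Jup* at 24 months. The median standard error of the log2 fold change was 0.12 for the 10 genes, against 0.24 for all tested genes. At 12, 18 and 24 months their median log2 fold changes were −0.03, −0.06 and −0.14, where the medians of all tested genes were −0.01, 0.00 and 0.01. At 24 months 8 of the 10 had a negative value and 2, *Jup* and *Cdh1*, a positive one. Of all 11288 tested genes, 5726 had a positive value in that comparison.

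**Figure D2:**
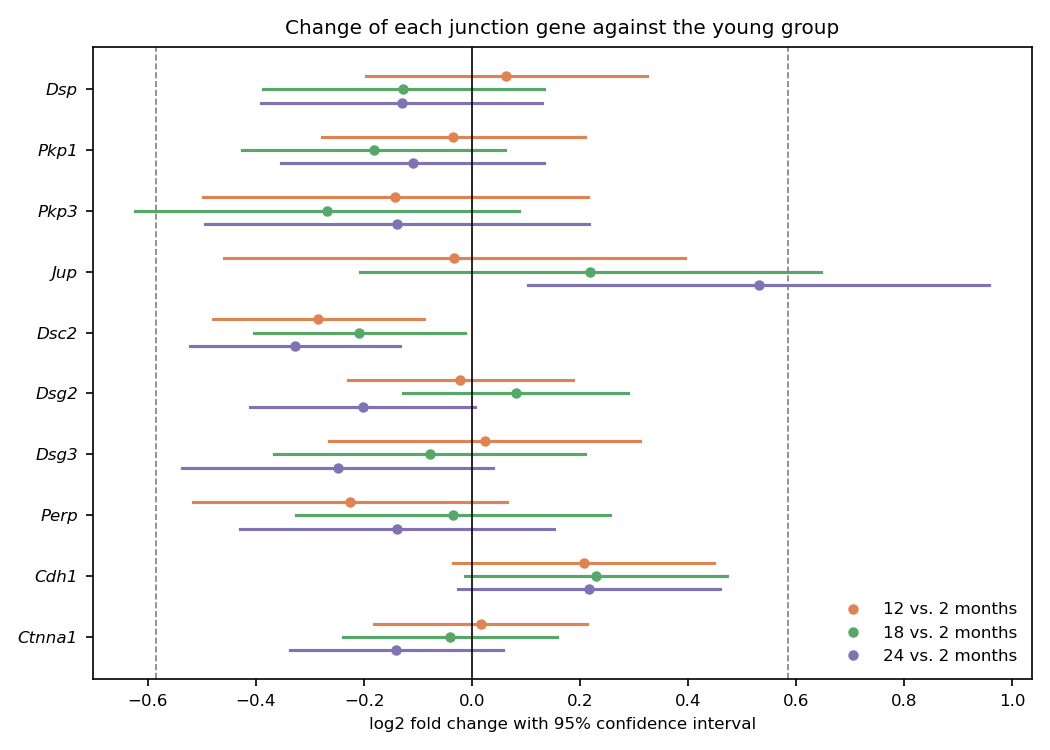
log2 fold change of each of the 10 junction genes at 12, 18 and 24 months against the young group (points) with 95% confidence intervals from limma (lines). The dashed lines mark 1.5-fold in either direction. Of the 30 intervals, 27 lie between them, and *Jup* at 24 months, at 0.53, is the point farthest from 0.

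Among the plaque genes, *Dsp* encodes desmoplakin, the link to keratin. The young libraries had 39963, 26743, 28752, 30581 and 26474 normalized counts in replicates 1 to 5. The 12-month libraries had 27714, 33708, 29526, 28047 and 40097, the 18-month libraries 29072, 26694, 26282, 28786 and 27210, and the 24-month libraries 28489, 27764, 34220, 26202 and 22320. All 4 ages overlapped, and 1 library each in the young, 12- and 24-month groups stood well above the others. The means were 30503 ± 5544, 31818 ± 5206, 27609 ± 1254 and 27799 ± 4309 (SD, n = 5 each), and the log2 fold change at 24 months was −0.13 (SE 0.13, limma adjusted p = 0.789). That value was −0.03 without young replicate 1, −0.21 without 24-month replicate 3 and −0.05 without 24-month replicate 5.

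*Pkp1* and *Pkp3* encode plakophilins, armadillo-repeat proteins that gather desmosomal cadherins and desmoplakin into the plaque. *Pkp1* averaged 4297 ± 420 normalized counts in the young group, 4235 ± 774 at 12 months, 3775 ± 144 at 18 months and 4006 ± 669 at 24 months (SD, n = 5 each). Its log2 fold changes of −0.03, −0.18 and −0.11 had adjusted p-values of 0.96, 0.85 and 0.811 with limma. The 24-month value was −0.20 without 24-month replicate 3 and −0.05 without 24-month replicate 4.

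*Pkp3* had 5963, 3247, 3115, 3558 and 3017 normalized counts in young replicates 1 to 5. It had 2575, 3634, 3253, 2869 and 4534 at 12 months, 3743, 2882, 2881, 2955 and 2786 at 18 months, and 3239, 4013, 4449, 2771 and 2500 at 24 months. Young replicate 1 stood far above the other young libraries, and 18-month replicate 1 stood apart in its group in the same direction. The log2 fold change was −0.14 at 12 months and −0.14 at 24 months, and it became 0.04 in both without young replicate 1, so the sign of *Pkp3* rested on that library.

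*Jup* encodes plakoglobin, which sits in both junction types and is a close relative of β-catenin. The young libraries spread over 2449, 5514, 7514, 5683 and 4498 normalized counts. The values were 6350, 4471, 5346, 4612 and 3308 at 12 months, 5561, 3730, 5801, 7576 and 6079 at 18 months, and 6067, 6625, 6798, 7927 and 7524 at 24 months. The 24-month libraries were the tightest group and each lay above 4 of the 5 young libraries, and young replicate 3 fell inside their range. *Jup* had the widest range of the 10 genes, with the highest library 3.24-fold above the lowest. Its log2 fold change at 24 vs. 2 months was 0.53 (95% confidence interval 0.10 to 0.96, unadjusted p = 0.0169, limma adjusted p = 0.359), and at 24 vs. 12 months 0.56 (adjusted p = 0.215). Without young replicate 1, which had the fewest *Jup* counts of all libraries, the 24-month value was 0.29 and the 18-month value went from 0.22 to −0.02.

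Of the desmosomal cadherins, *Dsc2* encodes desmocollin 2. It had 5205, 4237, 5026, 4360 and 4301 normalized counts in the young group and 3762, 3654, 3593, 4003 and 3921 at 12 months. It had 3571, 4466, 3922, 4261 and 3785 at 18 months and 3603, 3420, 4255, 3448 and 3696 at 24 months. The 12-month libraries all lay below the young ones. At 24 months replicate 3 reached into the young range by a narrow margin, and at 18 months replicates 2 and 4 did. The log2 fold changes were −0.28 (SE 0.10), −0.21 (SE 0.10) and −0.33 (SE 0.10), with adjusted p-values of 0.258, 0.64 and 0.123 from limma. For all aged libraries the value was −0.27 (95% confidence interval −0.43 to −0.11, unadjusted p = 0.00161, limma adjusted p = 0.11). Over the alternative settings, the lowest limma adjusted p among the 10 junction genes in that comparison ran from 0.0331 to 0.306. The gene with the lowest value need not be *Dsc2* in every setting. *Dsc2* was called in that comparison with quantile normalization alone among those run.

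The genes most alike to *Dsc2* over the 20 libraries, looked up after its values were seen, were led by the stromal collagen gene *Col1a1* (Pearson r = 0.76) and *Col4a1* (r = 0.75). These r values include the differences between ages, so any gene lower in the aged libraries tends to rank high. *Col4a1* averaged only 17.7 normalized counts. *Col1a1* fell from 929 ± 329 normalized counts in the young group to 73.1 ± 49.8 at 24 months (SD, n = 5 each; log2 fold change −3.74, limma adjusted p = 1.12e-08). Within ages, the correlation with the summed keratocyte markers over the 20 libraries was 0.21 for *Dsc2*, 0.63 for *Perp*, −0.48 for *Pkp1* and −0.46 for *Dsg2*, and between −0.38 and 0.06 for the other 6 genes. The part of the keratocyte markers in these values was not tested.

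*Dsg2* and *Dsg3* encode desmogleins 2 and 3. *Dsg2* averaged 1271 ± 68.1, 1254 ± 103, 1348 ± 138 and 1105 ± 80.9 normalized counts at 2, 12, 18 and 24 months (SD, n = 5 each). The 24-month libraries ran from 967 to 1169 and the 18-month ones from 1167 to 1527, which overlapped by a single library on each side. The log2 fold change at 24 vs. 18 months was −0.28 (unadjusted p = 0.00966, limma adjusted p = 0.919), and at 24 vs. 2 months −0.20 (adjusted p = 0.514).

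*Dsg3* averaged 1961 ± 448 normalized counts in the young group, 1960 ± 228 at 12 months, 1817 ± 77 at 18 months and 1635 ± 299 at 24 months (SD, n = 5 each). The 24-month libraries split into 3 low ones (1429, 1402 and 1420) and 2 high ones (1946 and 1977), and the young ones ran from 1300 to 2533. The log2 fold change at 24 vs. 2 months was −0.25 (SE 0.14, limma adjusted p = 0.585), −0.15 without young replicate 1 and −0.39 without young replicate 2.

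*Perp* encodes a small membrane protein of desmosomes in stratified epithelia. Its means were 12906 ± 2233, 11016 ± 1758, 12593 ± 2311 and 11725 ± 2140 normalized counts at 2, 12, 18 and 24 months (SD, n = 5 each). The ages overlapped broadly, since the young libraries alone ran from 9866 to 15876. The log2 fold changes against the young group were −0.23, −0.04 and −0.14, with adjusted p-values of 0.664, 0.989 and 0.8 from limma. The 24-month value was −0.23 without young replicate 1 and −0.06 without young replicate 2, and −0.09, −0.07 and −0.23 without 24-month replicates 2, 3 and 5.

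*Cdh1* encodes E-cadherin, the classical cadherin of epithelial adherens junctions. The young libraries had 4401, 3210, 3761, 3381 and 3302 normalized counts. The values were 3761, 4171, 4265, 3769 and 4812 at 12 months, 4719, 4424, 3933, 4100 and 3906 at 18 months, and 4679, 4820, 4702, 3746 and 3158 at 24 months. Every aged group had a higher mean than the young group, but young replicate 1 lay inside the range of each. All young libraries lay inside the range at 24 months, 3158 to 4820. The log2 fold changes of 0.21, 0.23 and 0.22 had adjusted p-values of 0.62, 0.715 and 0.571 with limma. Over all aged libraries the value was 0.22 (95% confidence interval 0.02 to 0.41, limma adjusted p = 0.505).

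*Ctnna1* encodes α-catenin, which joins the cadherin and catenin complex to actin. It varied least, with the highest library, at 6251 normalized counts, 1.33-fold above the lowest, at 4703. The means were 5469 ± 298, 5539 ± 490, 5346 ± 701 and 4961 ± 253 at 2, 12, 18 and 24 months (SD, n = 5 each), and the log2 fold change at 24 months was −0.14 (95% confidence interval −0.34 to 0.06).

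Where a tissue uses several members of a family, their ratio within a library does not depend on how the libraries were scaled. Both desmocollins were present at close to equal levels, and the share of *Dsc2* was lower in the aged groups by description. Of all desmocollin counts, *Dsc2* made up 50.7% ± 1.66 in the young group, 44.3% ± 2.44 at 12 months, 45.4% ± 2.33 at 18 months and 45.9% ± 3.76 at 24 months (SD, n = 5 each), and *Dsc3* nearly all of the rest. The log2 ratio of *Dsc2* to *Dsc3* was 0.16, 0.13, −0.05, 0.01 and −0.01 in the young libraries and −0.51, −0.19, −0.26, −0.44 and −0.21 at 12 months. It was −0.28, −0.03, −0.25, −0.37 and −0.36 at 18 months and −0.19, −0.15, 0.04, −0.55 and −0.34 at 24 months. The 12-month values were all below the young ones, and 1 library reached into the young range at 18 months and 1 at 24 months.

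The log2 ratio differed from that of the young group by a mean of −0.37 at 12 months (two-sided exact permutation p = 0.00794, the smallest that 5 against 5 allows), −0.30 at 18 months (exact p = 0.0159) and −0.28 at 24 months (exact p = 0.0317). These 3 tests share the young libraries. Adjusted over the 15 ratio tests made, the exact permutation p-values were 0.0794, 0.0794 and 0.119, so none passed. A lone test at the smallest possible p could not pass after this adjustment. Not passing therefore does not show that a ratio was unchanged. *Dsc3* itself had log2 fold changes of 0.08 at 12 months and −0.05 at 24 months.

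**Figure D3:**
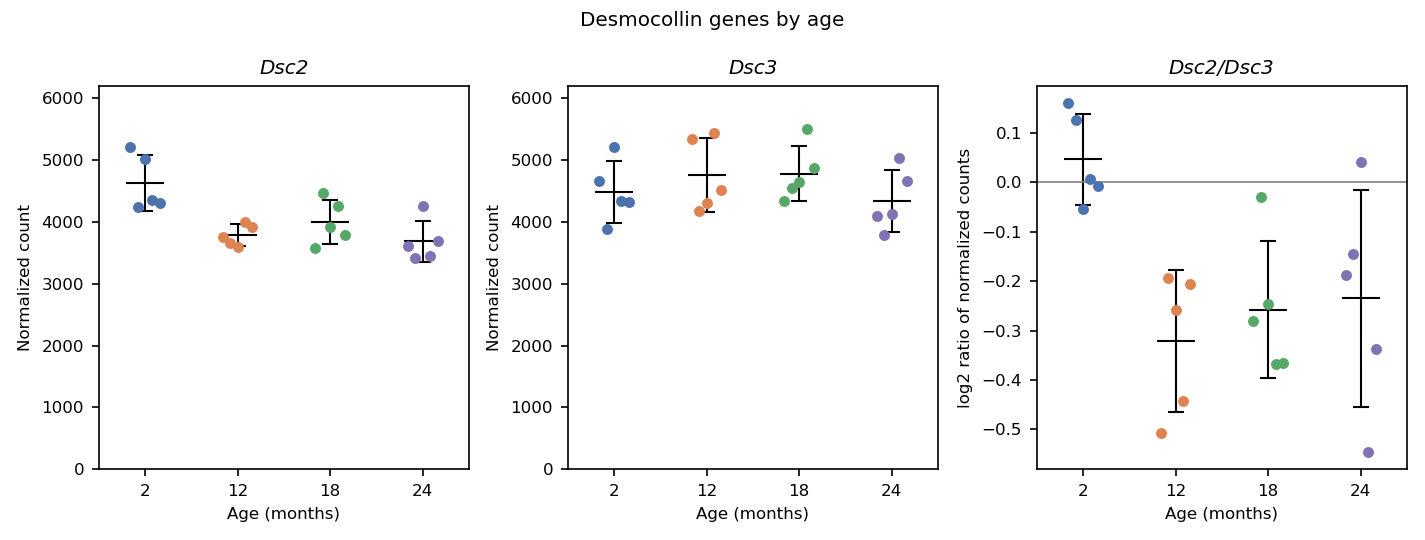
Normalized 3′-end counts of *Dsc2* and *Dsc3* (left and middle, from 0) and the log2 ratio of *Dsc2* to *Dsc3* (right) against age in months. Points are libraries, and bars give the mean and SD of 5 libraries. The ratio is centered near 0 in the young group and between −0.23 and −0.32 on average in the aged groups, where 1 library at 18 and 1 at 24 months lie in the young range.

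The other 4 ratios did not pass either, under the same limit. For *Pkp1* to *Pkp3* the differences at 12, 18 and 24 months were 0.11, 0.09 and 0.03, and for *Dsg2* to *Dsg3* −0.05, 0.16 and 0.05. For *Jup* to *Ctnnb1*, the gene of β-catenin, they were −0.01, 0.08 and 0.30 (exact permutation p = 0.214 at 24 months). For *Cdh1* to *Cdh3*, the gene of P-cadherin, they were 1.39, 0.88 and 1.38, with an adjusted exact permutation p of 0.0794 at 12 months. *Cdh3* was at 39.1 normalized counts in the young group against 3611 of *Cdh1*, so this ratio rested on few reads. *Cdh1* made up 98.9% to 99.6% of the classical cadherin counts by age means.

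Among plakophilins, *Pkp1* held 43.4%, *Pkp3* 35.7%, *Pkp4* 20.7% and *Pkp2* 0.25% of the family counts over the 20 libraries. Among desmogleins, *Dsg1a* held 35.2%, *Dsg3* 26.4%, *Dsg1b* 20.7% and *Dsg2* 17.7%, while *Dsg4* was at 0 in every library. *Dsg1a* and *Dsg1b* are near-identical copies, so the division of reads between them is uncertain.

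Libraries of the same age differed from one another in a pattern that several of these genes shared. Taking the deviation of each library from the mean of its age, *Dsp* and *Pkp3* moved together (r = 0.93 over 20 libraries), and *Cdh1* moved with both (r = 0.82 with *Dsp* and 0.85 with *Pkp3*). *Dsg3* followed *Dsp* (r = 0.66). *Perp* ran the other way against *Pkp3* (r = −0.79) and *Dsp* (r = −0.77), and so did *Jup* against *Pkp3* (r = −0.66). Within the ages the correlation of *Dsp* with *Pkp3* was 0.97, 0.97, 0.70 and 0.89 at 2, 12, 18 and 24 months over 5 libraries each, and that of *Dsp* with *Perp* was −0.79, −0.95, −0.24 and −0.92.

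These are descriptions, since all points share their library and its size factor. Of the 45 pairs of the 10 genes, 7 had an r of 0.5 or more and 7 an r of −0.5 or less, that is 31.1%, against 25.9% of all pairs of genes with a mean normalized count between 1000 and 30000. The median absolute r was 0.30 for the 10 genes and 0.32 for those pairs. As a set the 10 genes were thus about as correlated as other abundant genes.

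**Figure D4:**
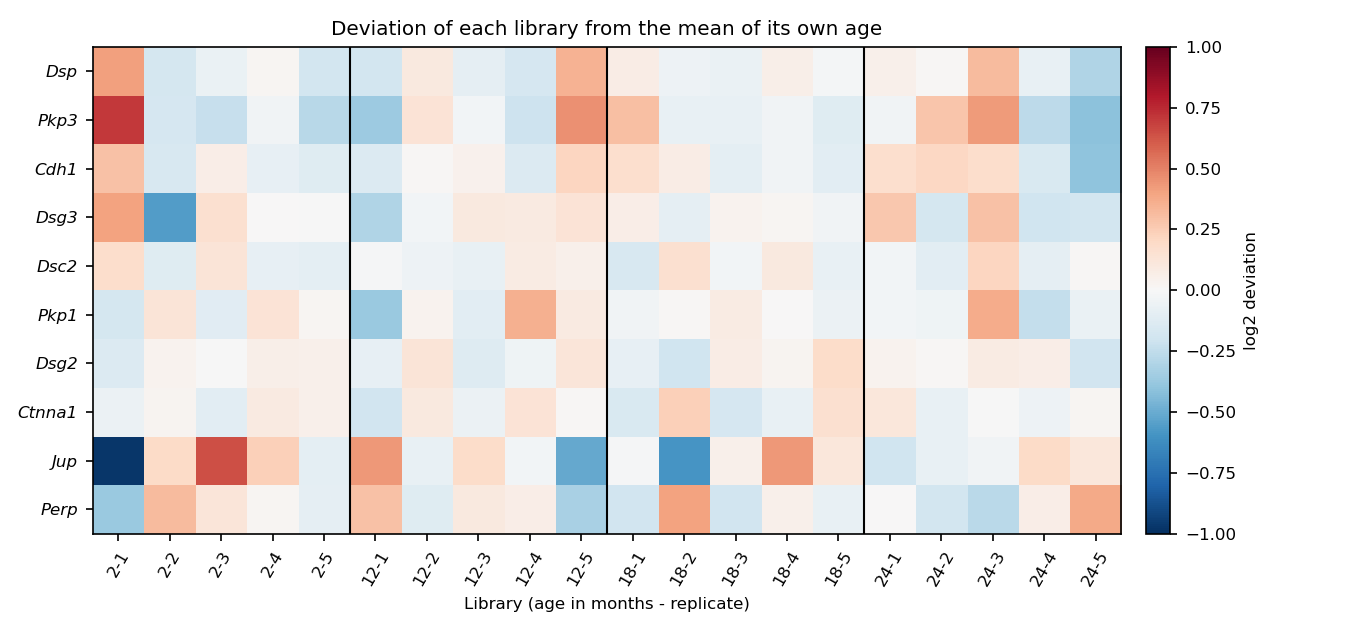
log2 deviation of each library from the mean of its own age (color, from −1 to 1) for the 10 junction genes (one above the other) in the 20 libraries (side by side, labelled by age in months and replicate). Young replicate 1, 12-month replicate 5 and 24-month replicate 3 are high for *Dsp*, *Pkp3*, *Cdh1* and *Dsg3* and low for *Perp*. 24-month replicate 5 shows the opposite.

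Single libraries carried this pattern. In young replicate 1 the log2 deviations were 0.41 for *Dsp*, 0.71 for *Pkp3*, 0.40 for *Dsg3* and 0.30 for *Cdh1*, with −0.98 for *Jup* and −0.37 for *Perp*. In 12-month replicate 5 they were 0.35 for *Dsp* and 0.45 for *Pkp3* against −0.51 for *Jup* and −0.33 for *Perp*. In 24-month replicate 5 the signs were turned, with −0.30 for *Dsp*, −0.41 for *Pkp3*, −0.40 for *Cdh1* and 0.38 for *Perp*. 18-month replicate 2 was high for *Perp* (0.40) and low for *Jup* (−0.59), with *Dsp* near its age mean (−0.05).

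A property of whole libraries moved with these genes. Across 10858 genes with a known transcript, the slope of the log2 deviation on log2 transcript length was highest in young replicate 1 (0.07 per doubling of length) and lowest in 24-month replicate 5 (−0.07). Within ages, this slope correlated with *Dsp* (r = 0.75), *Pkp3* (0.68), *Cdh1* (0.66) and *Dsg3* (0.58) and inversely with *Perp* (−0.74) and *Jup* (−0.54), over 20 libraries. For the remaining genes r lay between −0.08 (*Pkp1*) and 0.38 (*Dsg2*). The slope on GC content correlated with *Pkp3* (0.78), *Dsp* (0.73), *Cdh1* (0.69) and *Perp* (−0.73). For the remaining genes r lay between −0.39 (*Jup*) and 0.48 (*Pkp1*). GC content was 60.3% for *Pkp3*, 58.8% for *Jup*, 51.8% for *Dsp*, 50.7% for *Cdh1* and 48.0% for *Perp*. The longest transcript was 9592 bases for *Dsp*, 4430 for *Cdh1*, 6212 for *Dsg3*, 2919 for *Pkp3*, 3205 for *Jup* and 1952 for *Perp*. Young replicate 1 also had the largest share of reads on its 10 most abundant genes, 34.9% where the median library had 27.7%. The part of these library properties in the junction gene values was not tested.

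The spread of the 10 genes was otherwise ordinary for their level. The median over genes of the within-age coefficient of variation was 14.1%, against 12.6% for the 1329 tested genes with a mean normalized count between 1000 and 30000 and 24.5% for all tested genes. *Ctnna1* (7.15%) and *Dsg2* (7.76%) varied more than only 4.51% and 7.98% of those 1329 genes, while *Jup* (23.6%) and *Pkp3* (23.4%) varied more than 93.6% and 92.9% of them.

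Of 72 other genes of these junctions and their regulation, 59 were tested. At 12, 18 and 24 vs. 2 months 1, 0 and 0 of them were called by limma, where 0.532%, 0.673% and 0.78% of all tested genes were. At an unadjusted limma p below 0.05 there were 6, 3 and 8, against 9.56%, 7.18% and 9.97% of all tested genes, so these counts are near the background. The voom method called 0 of them in these 3 comparisons. By group, 1 of 9 tested desmosomal genes was called at 12 months, and 0 of 18 adherens junction genes, 0 of 18 genes of junction turnover, 0 of 3 repressors of *Cdh1* and 0 of 11 epithelial transcription factors were called in any of the 3. Their median log2 fold changes at 24 months were −0.16 for the desmosomal genes, −0.05 for the adherens junction genes, 0.02 for turnover, −0.24 for the repressors and 0.11 for the epithelial factors, where all tested genes had 0.01. All 9 tested desmosomal genes had a negative value at 24 months, and 5 did at 12 and 6 at 18 months. Of all 11288 tested genes, 5726 had a positive value at 24 months. This shared direction was not tested. Of the 59 genes, 2, 2 and 1 did not overlap with the young group at 12, 18 and 24 months. Of all tested genes, 1.98%, 2.05% and 2.81% did not. Between aged groups it was 1 at 18 vs. 12 months (1.13% of all genes), 4 at 24 vs. 12 months (3.24%) and 0 at 24 vs. 18 months (1.2%).

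The called gene was *Cdsn*, which encodes corneodesmosin, a secreted protein of the modified desmosomes of cornified cells. It had 73.4, 51.0, 110.5, 75.2 and 39.8 normalized counts in the young group and 7.4, 11.8, 12.9, 1.0 and 17.8 at 12 months. It had 26.8, 1.2, 20.6, 28.7 and 8.7 at 18 months and 25.4, 30.1, 77.6, 22.6 and 119.5 at 24 months. The 12- and 18-month libraries lay below all young ones, and the 24-month libraries overlapped with them. Of all tested genes, 1.98% and 2.05% did not overlap with the young group at 12 and 18 months. The log2 fold change of *Cdsn* at 12 months was −2.91 (SE 0.67, limma adjusted p = 0.0354), on a log2 scale with 1 added to each count. At 24 months it was −0.57 (adjusted p = 0.825). The limma F-test over the 4 ages gave *Cdsn* an adjusted p of 0.0383. That test called 1 of the 59 listed genes and 0.904% of all tested genes. The call at 12 months was lost with no filter (adjusted p = 0.0864), a pseudocount of 0.1 (0.0723), voom (0.161) and without each 1 of 7 libraries (young replicates 2 to 5 and 12-month replicates 1, 2 and 4). The call in the F-test was lost with no filter, a pseudocount of 0.1 and voom. It was also lost without each 1 of the 5 young libraries, 12-month replicates 1, 2 and 4, 18-month replicate 5 and 24-month replicates 2, 3 and 5. A filter at a mean of 50 normalized counts left *Cdsn* out of the test.

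*Lima1*, the gene of EPLIN, which binds actin at adherens junctions, is named after its values were seen. It averaged 2256 ± 248 normalized counts in the young group, 3055 ± 366 at 12 months, 2925 ± 269 at 18 months and 3048 ± 359 at 24 months (SD, n = 5 each). All 15 aged libraries, from 2521 upward, lay above the highest young library, at 2493. At 12, 18 and 24 months 1.98%, 2.05% and 2.81% of all tested genes did not overlap with the young group. Between all aged libraries and the young group, limma called 1 of the 59 listed genes and 1.01% of all tested genes. The called gene there was *Lima1* (log2 fold change 0.42, SE 0.09, limma adjusted p = 0.00973). Against single ages its adjusted p-values were 0.0625, 0.169 and 0.0588. The call was lost with scaling to corneal epithelium markers (0.0506), at 1.5-fold and without young replicate 2 (0.0854).

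In each list with no called gene at single ages, the tested gene with the largest 24-month value did not pass. *Cdh3* had a log2 fold change of −1.16 (limma adjusted p = 0.448). *Yes1*, a Src-family kinase that acts on junction proteins, had −0.55 (adjusted p = 0.412). *Zeb2*, a repressor of *Cdh1*, had −1.18 (adjusted p = 0.61) at a mean of 16.6 normalized counts. *Grhl1*, a grainyhead factor known to act on desmosomal cadherin genes, had 0.56 (SE 0.19, adjusted p = 0.225) at a mean of 1373 normalized counts. Of the 8 listed repressors, 5 were below a mean normalized count of 10, and *Snai1* and *Snai3* averaged under 1.

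The tested genes that followed the mean of the 10 junction genes most closely over the 20 libraries were *Ice2* (Pearson r = 0.78), *Flna* (0.76), *Idh3g* (0.75), *Glt28d2* (0.75) and *Malt1* (0.74). They head a list over all tested genes, the r values include differences between ages, and the points share library and scaling.

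In the GENCODE annotation of GRCm38, *Dsc2* (chr18:20030633-20059554, minus strand), *Dsg3* (chr18:20510274-20547459, plus) and *Dsg2* (chr18:20558074-20604521, plus) lie in the cluster of desmosomal cadherin genes, and *Ctnna1* (chr18:35118859-35254779, plus) on the same chromosome. *Dsp* is at chr13:38151294-38198577 (plus), *Pkp1* at chr1:135871395-135919207 (minus), *Pkp3* at chr7:141078218-141090510 (plus), *Jup* at chr11:100368958-100397763 (minus), *Perp* at chr10:18845020-18857073 (plus) and *Cdh1* at chr8:106603351-106670246 (plus). The neighbors *Dsg2* and *Dsg3* had a within-age r of 0.02 over the 20 libraries, and *Dsg3* and *Dsc2* one of 0.52. *Dsp*, *Dsg2* and *Ctnna1* overlap a gene on the opposite strand (*Gm10129*, *Gm16090* and *Lrrtm2*) and *Pkp1* one on its own strand (*Gm36938*). The strand setting of the counting is not given in the sources used here, so reads of such partners cannot be told apart.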

How the data were processed

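RNA from corneal epithelium of 20 mice was sequenced as 3′-end libraries. Per the labels and methods, the authors trimmed reads with cutadapt, aligned them with STAR to GRCm38, counted genes with HTSeq and normalized with DESeq2. The table the authors deposited holds log2 values, log2(count/size factor + 1), of 24552 genes, and 7624 of them had no read in any library. Whole reads were recovered for 100% of values within 0.1 read, which gave size factors of 0.76 to 1.33 and the depth of each library. Reads without molecular identifiers are not independent molecules, so counting errors cover counting only. The deposited columns have numbers as names, and the count test in edgeR was not run. Voom in limma on the recovered reads took its place.

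The 11288 genes that reached a mean of 10 normalized counts were fitted with limma 3.58.1 (R 4.3.3; moderated test with trend) over all 20 libraries, with ages as groups, and p-values were adjusted by Benjamini-Hochberg over all of them. The comparison of all aged libraries used a fit with 2 groups, and the linear trend used the lower end of each labelled age range. A call needed an adjusted p of 0.05 or less and at least 1.2-fold, except in the F-test, which had no fold threshold. Log2 ratios of 5 gene pairs were compared with two-sided exact permutation tests (252 splits of 5 against 5, 15 tests), with scipy 1.17.1. Correlations within ages used deviations from the age mean. Gene models were GENCODE on GRCm38. The fit was tested on simulated data.

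The members and lists were chosen with earlier results of these data known. Named are the 10 genes, listed genes called in a comparison of ages or the F-test, otherwise the tested gene of a list with the largest 24-month change, the partners in ratios, the 5 genes most like the mean of the 10, and cell type markers beside results. Alternatives changed scaling, filter, pseudocount, threshold, the samples fitted and the replicate block, and left out each library. Replicate numbers did not pair the libraries.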

Additional observations from a re-analysis of the deposited data

Results flagged for a closer look

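In 2 of the 40 sets of 5 libraries (10 genes at 4 ages), 1 library stood apart from the other 4 by the Dixon test at the 95% level, and chance gives about 1 in 20. Both concern *Pkp3*. In the young group replicate 1 had 5963 normalized counts, where the others had 3017 to 3558. In the 18-month group replicate 1 had 3743, where the others had 2786 to 2955.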

How the results depend on the processing

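None of the 10 junction genes was called in any comparison of ages under the alternatives run, except that quantile normalization called 1, *Dsc2*, between all aged libraries and the young group. Of the other junction genes, 1 was called at 12 vs. 2 months and 0 without a filter, with a filter at 50, with a pseudocount of 0.1 and with voom. Leaving out 1 library at a time gave 0 to 2 (the higher without young replicate 1, *Cdsn* and *Rab11a*). At 18 vs. 2 months a pseudocount of 10 gave 1 (*Cdsn*). At 24 vs. 2 months quantile normalization and total-count scaling gave 1 (*Lima1*), and leaving out 1 library gave 0 to 1 (*Lima1*, without 12-month replicate 4, 18-month replicate 2 or 24-month replicate 5).

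Several small log2 changes reversed. With scaling to corneal epithelium markers the 12-month values were 0.013 for *Pkp1*, 0.0151 for *Jup* and 0.0259 for *Dsg2*, and with quantile normalization −0.0266 for *Dsg3* and −0.0648 for *Ctnna1*. Leaving out 1 library at a time, the 12-month values ran from −0.0233 to 0.165 for *Dsp*, −0.123 to 0.0572 for *Pkp1*, −0.256 to 0.0352 for *Pkp3*, −0.277 to 0.128 for *Jup*, −0.0557 to 0.0095 for *Dsg2*, −0.116 to 0.124 for *Dsg3* and −0.0192 to 0.0628 for *Ctnna1*. The 18-month values ran from −0.0249 to 0.379 for *Jup*, −0.218 to 0.022 for *Dsg3*, −0.136 to 0.0437 for *Perp* and −0.0996 to 0.0011 for *Ctnna1*, and the 24-month value of *Pkp3* from −0.245 to 0.0385. The log2 ratio of *Pkp1* to *Pkp3* ran from −0.114 to 0.199, −0.135 to 0.172 and −0.193 to 0.107 at the 3 ages, that of *Dsg2* to *Dsg3* from −0.18 to 0.104 at 12 and −0.0889 to 0.195 at 24 months, and that of *Jup* to *Ctnnb1* from −0.157 to 0.126 at 12 and −0.0663 to 0.231 at 18 months. *Dsc2* stayed between −0.31 and −0.24 at 12 months and −0.38 and −0.28 at 24 months. The cause of these shifts was not tested.

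The replicate numbers did not pair the libraries: of 30 pairs with the same number 3 had a correlation of deviations over 0.1, and 3 of 20 libraries correlated best with their own number. With the replicate block 0 of the 10 genes were called in each comparison (lowest adjusted p in limma 0.342, 0.74 and 0.192 at 12, 18 and 24 vs. 2 months), and of the other junction genes 1, 0 and 0 were called. For the ratios, pairing by number gave a lowest adjusted exact p of 0.469, but sign flips of 5 pairs cannot reach 0.05 even before adjustment, so this says nothing about stability.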
